A study of Homo sapiens with 16 samples.

Results

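The genes described here are those of 6 families of pre-mRNA splicing factors, taken by their symbols from the table of read counts per gene: SNRP, SF3, PRPF, LSM, SRSF and HNRNP. The symbol patterns matched 196 of the 27037 symbols in the table, and 116 of these, whose symbols end in P and a number as those of processed pseudogenes do, were dropped. The 80 genes that remained were 12 SNRP, 9 SF3, 13 PRPF, 11 LSM, 12 SRSF and 23 HNRNP genes. After removal of genes with too few counts, 76 of them were among the 15415 genes tested. The 4 that were not tested were LSM2, HNRNPH2, HNRNPCL1 and HNRNPCL2, with 1, 21, 10 and 2 counts over all 16 libraries. The annotation release behind the counts was not given in the sources used here, and whether it set the near absence of LSM2 and HNRNPH2 was not tested.

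The samples were polyA RNA of SK-N-BE(2)C, an established human neuroblastoma line that carries MYCN amplification and belongs to the adrenergic type. Cells received DMSO, 10 µM retinoic acid (RA), 1 µM palbociclib (PB), which inhibits CDK4 and CDK6 and so blocks entry into S phase, or 1 µM palbociclib with 10 µM retinoic acid (PB+RA) for 5 days. Each of the 4 groups had 4 replicates, which were different passages of this 1 line plated as separate experiments, so the p-values measure the spread between such platings. The libraries held 19.5 to 31.6 M counts, and 3 counts, the floor used here, correspond to 0.095 to 0.154 CPM (counts per 1000000 counts of the library). The adrenergic genes PHOX2A, HAND2, DBH and TH were counted in every sample, and SOX10, PTPRC and PECAM1, which mark Schwann, blood and endothelial cells, did not exceed 0.285 CPM in any sample. Of the other markers examined, S100B had a mean of 8.19 CPM in DMSO and 15.1 CPM with PB, EPCAM had a mean of 0.280 CPM in DMSO and 2.87 CPM with PB+RA, CD44, TWIST1 and COL1A1 lay between 15.6 and 189 CPM over all samples and SNAI2, FOSL1 and YAP1 between 0.129 and 23.4 CPM. Their part in the results was not tested.

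Splicing is carried out by the spliceosome, which is built from small nuclear ribonucleoproteins (snRNPs). The SNRP genes encode the Sm proteins, which form a ring around the U1, U2, U4 and U5 RNAs, and proteins particular to the U1 and U2 snRNPs. The LSM2 to LSM8 proteins form the related ring of U6, and the SF3A and SF3B complexes make the U2 snRNP able to hold the branch point. The PRPF proteins belong mainly to the U4/U6.U5 tri-snRNP and to the complexes that activate it. SRSF proteins have serine and arginine rich tails and often favour the use of a nearby exon, while HNRNP proteins coat nascent transcripts and often act against it. Dividing cells need large amounts of these factors, and MYC family proteins are known to bind the promoters of several of them.

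RefSeq promoters, which run from 250 bases before to 50 bases after a gene's start on GRCh38.p14, were found for 70 members, of which 66 were tested. Both strands were searched for 7 short motifs, with matches of one motif allowed to overlap those of another. CACGTG, the E-box that MYC proteins bind and a palindrome, was in 7 of the 66 promoters (10.6%), against 7.43% of all 27305 promoters and 9.96% of the promoters of tested genes. Of these 7 promoters, 6 belonged to HNRNP genes (HNRNPA3, HNRNPD, HNRNPDL, HNRNPH3, HNRNPM and HNRNPUL1, of 19 HNRNP promoters) and the other to SF3B1. CCGGAAGT, a motif of ETS factors, was in 14 of 66 member promoters (21.2%), against 4.44% of all promoters and 8.38% of those of tested genes, and it was in 6 of the 8 SF3 promoters. The shorter ETS core CGGAAG, which lies within CCGGAAGT, was in 36 of 66 (54.5%), against 19.9% of all promoters and 31.8% of those of tested genes. The E2F motifs TTTCCCGC and TTTGGCGC were in 4 and 1 of 66 member promoters, against 1.66% and 0.659% of all promoters and 2.62% and 1.07% of those of tested genes. CCAAT was in 29 of 66 (43.9%) against 35.7% of all promoters and 36.4% of those of tested genes, and TGACGTCA in 0 of 66, against 1.98% and 3.29%. These matches are descriptions of the letters in a window and not of bound sites.

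The following promoters are shown because they belong to the HNRNP genes with the largest falls under PB+RA (HNRNPD, HNRNPH3 and HNRNPM), to the SNRP gene with the most counts (SNRPB) and to 3 SF3 genes that share the ETS motif, of which SF3A3 and SF3B4 fell under PB+RA and SF3B6 was not called. They are written 5′ to 3′ on the gene's strand, and capitals mark each match to the E-box, ETS or E2F motif, the latter pair on either strand. The positions on GRCh38.p14 are chr4:82373942-82374241, minus strand for HNRNPD, chr10:68331443-68331742, plus strand for HNRNPH3, chr19:8444725-8445024, plus strand for HNRNPM, chr20:2470740-2471039, minus strand for SNRPB, chr1:37989973-37990272, minus strand for SF3A3, chr1:149927754-149928053, minus strand for SF3B4 and chr2:24076277-24076576, minus strand for SF3B6.
HNRNPD: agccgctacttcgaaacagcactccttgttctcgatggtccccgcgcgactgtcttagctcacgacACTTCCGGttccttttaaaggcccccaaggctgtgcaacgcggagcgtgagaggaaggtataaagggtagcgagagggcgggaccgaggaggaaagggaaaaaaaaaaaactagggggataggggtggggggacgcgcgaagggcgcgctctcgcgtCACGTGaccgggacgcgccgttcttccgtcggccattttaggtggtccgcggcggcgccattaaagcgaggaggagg
HNRNPH3: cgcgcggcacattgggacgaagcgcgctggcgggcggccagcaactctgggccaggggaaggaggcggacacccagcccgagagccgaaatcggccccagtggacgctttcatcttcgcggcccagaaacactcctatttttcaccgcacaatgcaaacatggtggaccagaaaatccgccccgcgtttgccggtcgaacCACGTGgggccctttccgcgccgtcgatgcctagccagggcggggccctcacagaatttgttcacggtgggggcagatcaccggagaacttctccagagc
HNRNPM: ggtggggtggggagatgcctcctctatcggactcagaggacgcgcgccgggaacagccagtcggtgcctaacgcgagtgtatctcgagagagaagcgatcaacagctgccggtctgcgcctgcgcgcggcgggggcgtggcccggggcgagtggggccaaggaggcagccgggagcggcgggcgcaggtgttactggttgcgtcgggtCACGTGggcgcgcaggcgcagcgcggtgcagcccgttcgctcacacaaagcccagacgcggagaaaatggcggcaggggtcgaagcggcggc
SNRPB: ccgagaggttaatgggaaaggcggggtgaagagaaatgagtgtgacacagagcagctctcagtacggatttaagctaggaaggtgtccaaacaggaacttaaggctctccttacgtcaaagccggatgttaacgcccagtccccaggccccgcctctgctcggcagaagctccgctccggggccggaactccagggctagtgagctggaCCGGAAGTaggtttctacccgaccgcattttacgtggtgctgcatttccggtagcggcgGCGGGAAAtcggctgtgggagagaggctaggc
SF3A3: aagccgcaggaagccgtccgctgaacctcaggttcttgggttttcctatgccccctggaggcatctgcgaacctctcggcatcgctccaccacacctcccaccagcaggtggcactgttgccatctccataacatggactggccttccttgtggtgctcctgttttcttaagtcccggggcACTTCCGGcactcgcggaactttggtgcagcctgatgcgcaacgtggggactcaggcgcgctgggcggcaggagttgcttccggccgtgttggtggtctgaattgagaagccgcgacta
SF3B4: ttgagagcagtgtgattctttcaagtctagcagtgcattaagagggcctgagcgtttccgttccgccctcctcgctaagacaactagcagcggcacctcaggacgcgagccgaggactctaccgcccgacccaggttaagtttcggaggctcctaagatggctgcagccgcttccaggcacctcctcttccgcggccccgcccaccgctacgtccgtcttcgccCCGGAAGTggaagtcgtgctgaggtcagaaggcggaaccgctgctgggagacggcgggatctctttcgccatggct
SF3B6: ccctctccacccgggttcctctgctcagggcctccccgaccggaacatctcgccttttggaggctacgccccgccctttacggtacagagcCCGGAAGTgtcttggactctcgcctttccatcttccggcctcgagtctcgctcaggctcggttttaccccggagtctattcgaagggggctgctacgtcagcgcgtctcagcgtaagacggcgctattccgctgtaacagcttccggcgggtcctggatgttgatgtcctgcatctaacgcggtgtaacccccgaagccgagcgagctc
The HNRNPD promoter held an ETS match as well as its E-box, and that of SNRPB held an ETS and an E2F match. The E-boxes of HNRNPH3 and HNRNPM began 50 and 42 bases before the start of transcription.

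Splicing factor messages took up a smaller share of the RNA in each treated group than in DMSO. The 80 members together reached 21516, 21321, 21289.9 and 21406 CPM in the 4 DMSO samples, 19459, 19488, 19012 and 18981 CPM with RA, 14918, 15050.4, 15823 and 16102 CPM with PB and 12888, 13291, 13686 and 13497 CPM with PB+RA. No sample of one group overlapped another group, and the spread was widest with PB, where replicates 1 and 2 lay below replicates 3 and 4. Against the DMSO mean the summed level fell by 10.0% with RA, 27.6% with PB and 37.6% with PB+RA. Such sums are described here without a test. A CPM is a share of each library, and in bulk RNA fewer cells that express a gene and less of its RNA per cell cannot be told apart.

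The families differed in how far their summed levels fell under PB+RA. The SNRP family fell by 43.4%, from 1512 ± 34.7 CPM (SD, n = 4) to 856 ± 34.9 CPM, and the HNRNP family by 41.5%, from 12371 ± 136 CPM to 7235 ± 239 CPM. SRSF genes together fell by 35.0%, from 3142 ± 47.3 CPM to 2043 ± 70.6 CPM. The falls were 29.1% for LSM, 26.7% for PRPF and 25.1% for SF3. With PB alone the summed levels fell by 31.1% for HNRNP, 28.7% for SNRP, 25.5% for SRSF, 20.2% for SF3, 19.0% for PRPF and 16.1% for LSM. With RA alone they fell by 6.59% (SF3) to 15.9% (SNRP). In all families the samples of the 4 groups did not overlap and stood in the order DMSO, RA, PB, PB+RA, except that the LSM sums with RA (707 to 747 CPM) and with PB (683 to 730 CPM) overlapped.

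**Figure D1:**
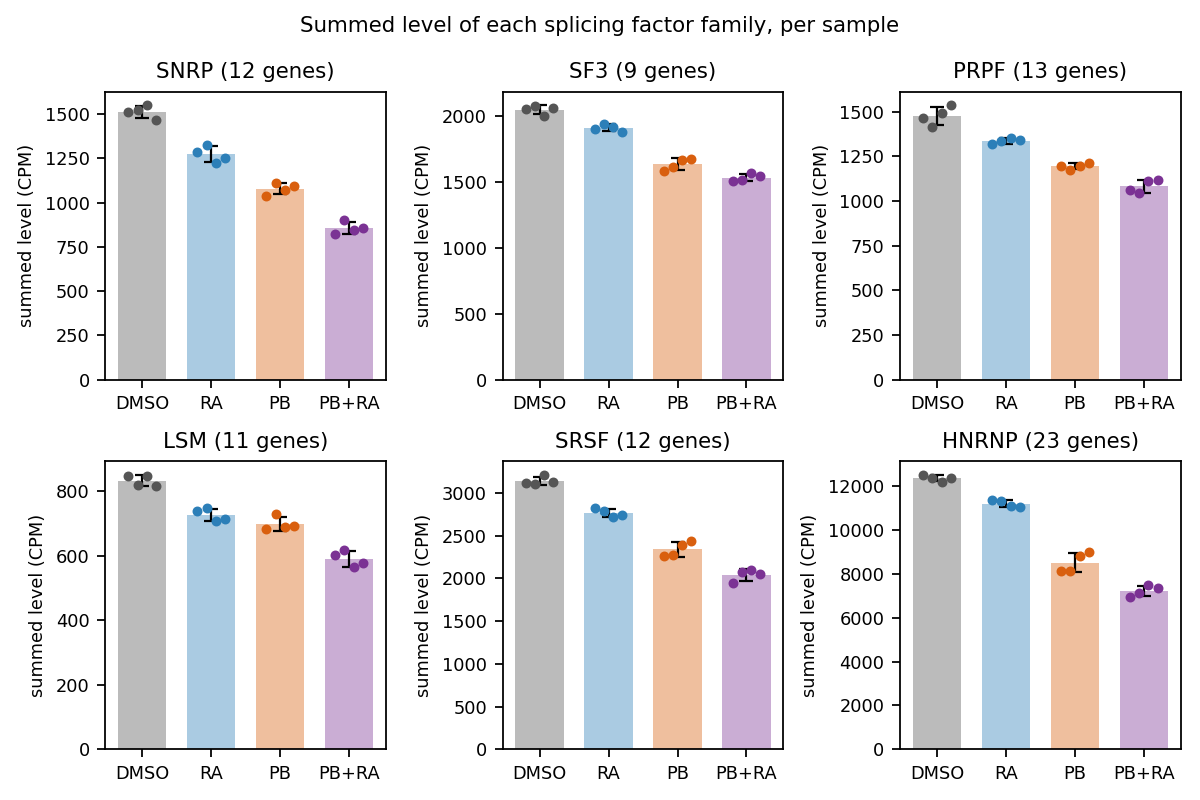
Summed level of each family in CPM (vertical axis, from 0) in each of the 16 samples by group, with bars for the mean of 4 samples, error bars for the SD and points for single samples. The SNRP sum fell by 43.4% and the SF3 sum by 25.1% between DMSO and PB+RA.

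Gene by gene, most members were lower with PB+RA and almost none were higher. A gene was called where its adjusted p was under 0.05 and its log2 fold change exceeded 0.5 in size, in a quasi-likelihood fit over all 15415 tested genes. With PB+RA against DMSO, 45 of 76 members were called lower and 1 higher, where 17.9% of all tested genes were called lower and 24.0% higher. The median log2 fold change of the members was -0.58, against 0.04 for all tested genes. All 4 PB+RA samples lay below all 4 DMSO samples for 60 of 76 members, where that held for 26.9% of all tested genes, and above them for 6, where it held for 31.4%. Of the 74 members with a mean of at least 10 CPM, 45 were called lower, where 19.5% of the 10002 tested genes at that level were.

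With PB against DMSO, 28 members were called lower and 1 higher, beside 11.3% and 16.9% of all tested genes, and the median log2 fold change of the members was -0.38. The 28 were all among the 74 members of at least 10 CPM, a level at which 11.5% of tested genes were called lower. With RA against DMSO none of 76 members was called by edgeR, where 2.54% of all tested genes were called lower. Of the 76, 45 had an unadjusted p under 0.05, as did 6930 of all 15415 tested genes, and DESeq2 called 1 member. Without a fold minimum 36 members were lower and 1 was higher with RA, where 16.4% of all tested genes were lower, and the median of the members was -0.16. The RA shifts were small in size, with log2 fold changes between -0.48 and 0.46.

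More members were called when PB was added to RA than when RA was added to PB. Between PB+RA and RA, 34 of 76 members were called lower and none higher, beside 14.1% of all tested genes called lower, and the median was -0.41. Those 34 were all of at least 10 CPM, where 13.9% of tested genes were called lower. Between PB+RA and PB, 2 members were called lower, HNRNPD and SNRPA1, beside 7.27% of all tested genes. Without a fold minimum, 49 members were lower and 1 was higher, beside 20.9% of all tested genes that were lower, and the median was -0.20. SNRPA1 was no longer called without PB replicate 2, when its log2 fold change was -0.47.

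**Figure D2:**
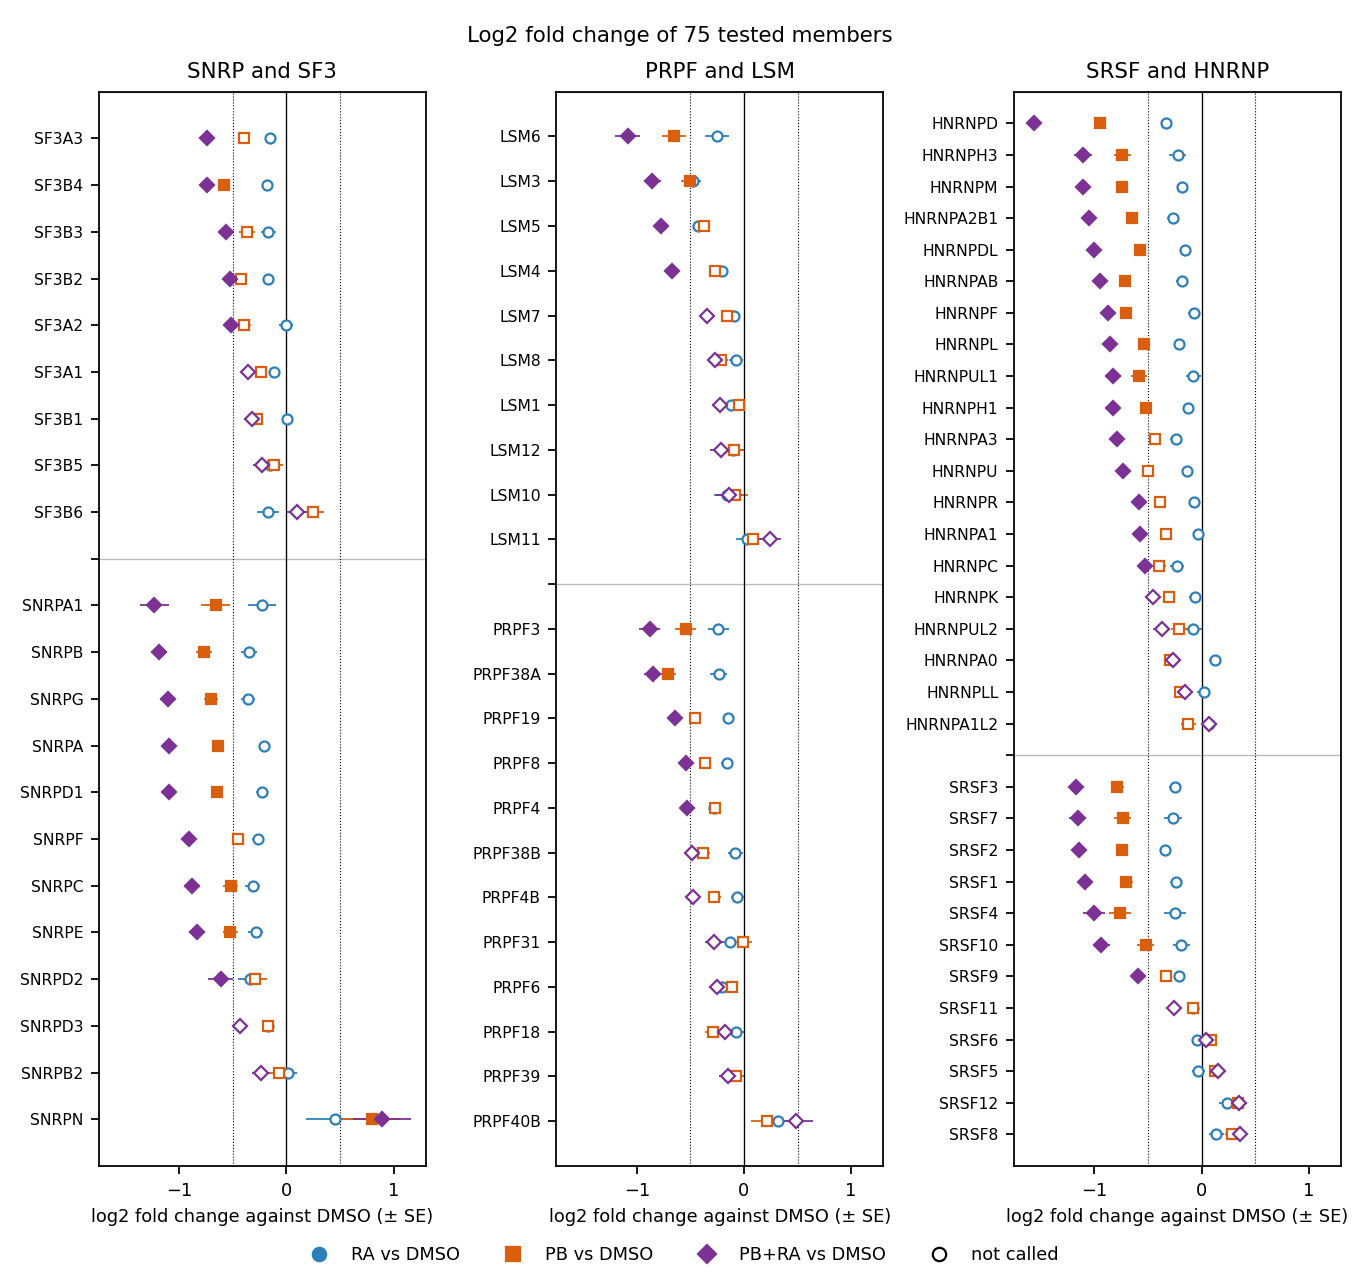
Log2 fold change against DMSO (horizontal axis, ± SE) of 75 of the 76 tested members (rows), with RA as circles, PB as squares and PB+RA as diamonds, filled where called and open where not, and dotted lines at the fold minimum of 0.5. With PB+RA 45 members were called lower and 1, SNRPN, higher, and no RA symbol is filled.

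Of the 8 genes of the common Sm proteins, which every major snRNP but U6 carries, 6 were called lower with PB+RA. Over all tested genes 17.9% were called lower in this comparison. SNRPB (chr20:2442280-2451499, minus strand on hg19), which encodes SmB, had the most counts in its family. Its level was 342, 354, 346 and 314 CPM in DMSO, 279, 284, 244 and 263 with RA, 188, 216, 196 and 194 with PB and 154, 171, 136 and 144 with PB+RA. The 4 groups did not overlap, and the log2 fold change was -1.19 ± 0.07, adjusted p = 4.84e-10 with PB+RA, -0.77 ± 0.07, adjusted p = 2.20e-07 with PB and -0.35 ± 0.07 with RA. SNRPG (chr2:70508494-70520872, minus strand), the gene of SmG, went from 51.3, 53.0, 54.3 and 56.6 CPM in DMSO to 42.6, 44.0, 40.5 and 42.1 with RA, 31.7, 31.7, 32.6 and 36.2 with PB and 22.7, 24.9, 25.4 and 28.8 with PB+RA. Its groups did not overlap either (-1.11 ± 0.07, adjusted p = 3.89e-10 with PB+RA). SNRPD1, SNRPF, SNRPE and SNRPD2 were called lower with PB+RA at -1.10, -0.91, -0.84 and -0.61. The gene of SmD3 was the exception among the well counted Sm genes, since SNRPD3 had -0.43 ± 0.04, adjusted p = 2.82e-08, under the fold minimum. Of these, SNRPB, SNRPG, SNRPD1 and SNRPE were called lower with PB alone, and SNRPE lost that call without DMSO replicate 1 (-0.50) and without DMSO replicate 3 (-0.49).

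The only member called higher was SNRPN, an imprinted gene whose protein can take the place of SmB in neurons. Its level was low, though above the floor, at 0.851, 0.448, 0.506 and 0.542 CPM in DMSO, 0.451, 1.05, 0.942 and 0.811 with RA, 0.987, 1.31, 0.951 and 0.860 with PB and 1.23, 1.33, 0.970 and 0.922 with PB+RA. All PB and PB+RA samples were above the DMSO samples, the nearest being DMSO replicate 1 at 0.851 and PB replicate 4 at 0.860 CPM. The log2 fold change was 0.89 ± 0.27, adjusted p = 0.00823 with PB+RA and 0.79 ± 0.27, adjusted p = 0.0218 with PB. The PB call was lost without DMSO replicate 2 (0.69), DMSO replicate 3 (0.73), DMSO replicate 4 (0.75) or PB replicate 2 (0.66), while the PB+RA call was kept without any 1 library. SNRPN (chr15:25068784-25223870, plus strand) shares 141 exon bases with SNHG14 and 813 with SNURF on the same strand, and SNHG14 was counted at 37.0 CPM, so its count is uncertain where reads fall in shared exons.

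**Figure D3:**
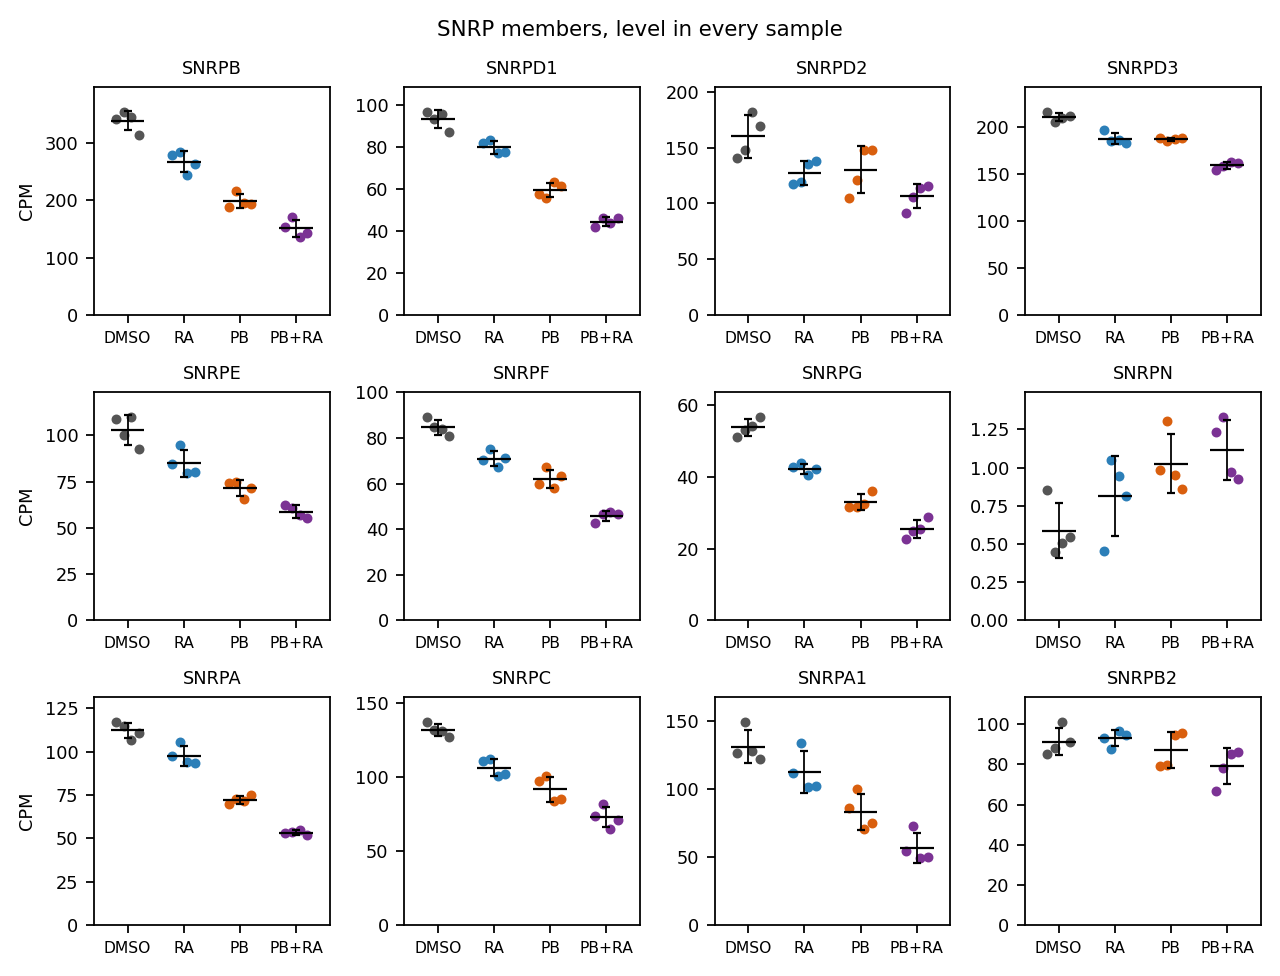
Level in CPM (vertical axes, from 0) of the 12 SNRP genes in every sample by group, with points for samples, a line for the mean of 4 and error bars for the SD. SNRPB and SNRPA1 step down from DMSO to PB+RA, while SNRPN, on an axis that ends near 1.5 CPM, is higher in the PB and PB+RA samples.

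Among the proteins particular to the U1 and U2 snRNPs, 3 of 4 genes were called lower with PB, with PB+RA and with PB+RA against RA, and the U2 protein gene SNRPB2 was not. Over all tested genes 11.3%, 17.9% and 14.1% were called lower in these comparisons. SNRPA1, which encodes the U2 protein A′, had the largest fall of the family. Its level was 126, 149, 128 and 122 CPM in DMSO, 112, 134, 102 and 103 with RA, 86.1, 101, 70.9 and 75.0 with PB and 54.5, 73.1, 49.4 and 50.4 with PB+RA, and replicate 2 was the highest in every group. The log2 fold change was -1.24 ± 0.14, adjusted p = 7.57e-07 with PB+RA and -0.66 ± 0.13, adjusted p = 6.02e-04 with PB. The U1 genes SNRPA and SNRPC fell with PB+RA by 1.10 and 0.88 on the log2 scale and with PB by 0.64 and 0.52, where SNRPC lost its PB call without PB replicate 4 (-0.49). SNRPB2, which encodes the partner of A′ on U2, had log2 fold changes of -0.07 with PB and -0.24 with PB+RA, with adjusted p of 0.541 and 0.0212.

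The SF3A and SF3B genes, which encode the branch point part of the U2 snRNP, moved less, with 5 of 9 called lower under PB+RA and 1 under PB. Over all tested genes 17.9% and 11.3% were called lower in these comparisons, so the 1 of 9 (11.1%) with PB was near that share. SF3B4 (chr1:149895209-149899695, minus strand) was the gene called with PB. It stood at 149, 150.0, 140.1 and 147 CPM in DMSO, 133, 128, 126 and 132 with RA, 93.1, 101, 96.8 and 99.9 with PB and 88.7, 88.7, 91.6 and 88.4 with PB+RA. Each group lay below the one before it, with -0.58 ± 0.04, adjusted p = 1.32e-08 with PB and -0.74 ± 0.04, adjusted p = 1.90e-10 with PB+RA. SF3A3 (chr1:38422647-38455747, minus strand) fell the most within SF3A, from 111, 118, 109 and 114 CPM in DMSO to 83.8, 88.1, 82.4 and 89.3 with PB and 67.7, 66.6, 70.7 and 70.4 with PB+RA, and these ranges were also apart (-0.74 ± 0.05, adjusted p = 4.68e-10 with PB+RA). SF3B3, SF3B2 and SF3A2 were called lower with PB+RA at -0.56, -0.52 and -0.52. The last was close to the fold minimum and lost its call without DMSO replicate 1 or PB+RA replicate 4 (-0.49 in both cases).

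SF3B1, the HEAT repeat scaffold of SF3B and the gene with the most counts in the SF3 family, was 454, 478, 442 and 459.9 CPM in DMSO, 455, 475, 456 and 463 with RA, 379.8, 369, 373 and 390.3 with PB and 354, 367, 389 and 388 with PB+RA. RA and DMSO samples overlapped, as did PB and PB+RA samples, and the fall with PB+RA was under the fold minimum (-0.32 ± 0.04, adjusted p = 2.39e-06). SF3B6, whose protein touches the branch point adenosine, went the other way with PB at 0.25 ± 0.10, adjusted p = 0.0469, under the fold minimum, and was at 0.10 with PB+RA (adjusted p = 0.388). SF3B5, the other small subunit, was at -0.23 with PB+RA (adjusted p = 0.0279). All 3 genes hold CGGAAG in their promoters, as do the 5 other SF3 genes with a promoter sequence, so this core cannot separate called from uncalled SF3 genes. Among tested members with a promoter, it was in 22 of 39 called lower with PB+RA (56.4%) and 14 of 27 that were not (51.9%). CCGGAAGT was in 10 of 39 (25.6%) and 4 of 27 (14.8%). Whether either motif bears on the falls was not tested.

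Of the PRPF genes, 5 of 13 were called lower with PB+RA, 2 with PB and 2 with PB+RA against RA, and the median under PB+RA was -0.48. Over all tested genes 17.9%, 11.3% and 14.1% were called lower in these comparisons. The counts of 2 of 13 (15.4%) were thus near the share of all genes. PRPF8, the large U5 protein at the heart of the spliceosome and the member of its family with the most counts, had 345, 323, 310.2 and 345 CPM in DMSO, 299.7, 311, 301 and 278 with RA, 280.3, 264, 237 and 246 with PB and 241, 219, 224 and 244 with PB+RA. Its DMSO samples were above its PB and PB+RA samples, though the lowest DMSO and the highest RA sample crossed, and the fall with PB+RA was 0.54 on the log2 scale (adjusted p = 3.02e-07). PRPF3, a protein of the U4/U6 snRNP, had 88.5, 81.4, 98.4 and 101 CPM in DMSO, 57.5, 55.9, 68.8 and 71.0 with PB and 47.8, 48.6, 55.6 and 52.9 with PB+RA, without overlap (-0.88 ± 0.10, adjusted p = 7.62e-07 with PB+RA). Its PB call (-0.54) was lost without PB replicate 1 or PB replicate 2 (-0.49 in both cases). PRPF38A, which joins the complex before catalysis, had 61.2, 60.4, 63.7 and 65.4 CPM in DMSO, 35.2, 34.6, 39.7 and 43.2 with PB and 33.4, 32.0, 37.7 and 38.7 with PB+RA, and here the PB and PB+RA samples overlapped. It had -0.71 ± 0.08, adjusted p = 1.35e-06 with PB and -0.85 ± 0.08, adjusted p = 7.88e-08 with PB+RA.

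PRPF19, the ubiquitin ligase of the PRP19 complex, fell with PB+RA (-0.65 ± 0.05, adjusted p = 3.04e-09) and its 4 groups did not overlap. Between PB+RA and RA its log2 fold change was -0.4997, just short of the fold minimum, and with the replicate number as a block it was -0.5001 and was called. PRPF4, the U4/U6 partner of PRPF3, was also called with PB+RA, at -0.54. The remaining genes of the U4/U6 and tri-snRNP list, PRPF38B, PRPF4B, PRPF31, PRPF6 and PRPF18, had log2 fold changes of -0.49, -0.48, -0.28, -0.25 and -0.18 with PB+RA. PRPF39 and PRPF40B, linked to the U1 snRNP, were not called with any treatment against DMSO in the main fit, at -0.15 and 0.49 with PB+RA. There PRPF40B passed the adjusted p as higher but not the fold minimum. It was called higher without DMSO replicate 3 (0.54) and without PB+RA replicate 2 (0.55). The same held with scaling by total counts (0.52), a stricter filter (0.51) and replicates 3 and 4 alone (0.50). PRPF39 and PRPF40B share 654 and 2643 exon bases with FKBP3 and FMNL3 on the opposite strand, whose levels were 163 and 37.9 CPM against 33.2 and 9.09 CPM for the members themselves. The strand setting of the counting was not given in the sources used here. Called members of other families also overlap genes on the opposite strand, though with partners at lower levels than their own. Among them were HNRNPUL1 (413 CPM) with TGFB1 (253 CPM), SF3A2 (200 CPM) with PLEKHJ1 (86.1 CPM) and HNRNPA2B1 (1353 CPM) with CBX3 (354 CPM). How far such overlaps affected the counts was not tested.

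In the LSM family the 4 genes called lower with PB+RA, LSM3, LSM4, LSM5 and LSM6, encode proteins of the U6 ring. The cytoplasmic decay ring shares these 4 proteins, so their falls are not particular to U6. LSM8, whose protein is in the U6 ring alone, was not called (-0.27 with PB+RA). Of the 10 tested LSM genes, 4 were called lower with PB+RA, 2 with PB and 1 with PB+RA against RA. Over all tested genes 17.9%, 11.3% and 14.1% were called lower in these comparisons, so the 1 of 10 was no larger a share. Of the 6 tested genes of the LSM2 to LSM8 ring, 4 were called lower with PB+RA and 2 with PB, with medians of -0.73 and -0.32. LSM6 had 26.0, 24.5, 29.6 and 27.5 CPM in DMSO, 20.5, 22.0, 24.3 and 24.3 with RA, 15.1, 16.3, 17.1 and 19.9 with PB and 11.8, 10.4, 15.4 and 14.1 with PB+RA. DMSO samples were the highest, RA samples lay between, the PB+RA and PB samples overlapped at 15.4 and 15.1 CPM, and the change with PB+RA was -1.08 ± 0.12, adjusted p = 3.89e-07. LSM4, with the most counts in the family, went from 312, 292, 302 and 284 CPM in DMSO to 239, 257, 254 and 236 with PB and 205, 197, 180.0 and 178 with PB+RA (-0.68 ± 0.06, adjusted p = 2.83e-08).

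LSM3 and LSM5 were the members with the largest falls under RA alone. LSM3 had 101, 89.2, 91.5 and 90.6 CPM in DMSO, 72.8, 70.8, 59.1 and 66.2 with RA, 68.1, 73.5, 58.8 and 61.7 with PB and 56.4, 55.3, 49.5 and 48.7 with PB+RA. The RA and PB samples of LSM3 overlapped and both lay below DMSO, with log2 fold changes of -0.48 ± 0.08 with RA, -0.51 ± 0.08 with PB and -0.85 ± 0.08 with PB+RA. LSM5 was 75.5, 74.3, 77.2 and 71.1 CPM in DMSO, 56.5, 60.6, 51.7 and 54.7 with RA, 58.1, 59.4, 55.3 and 57.9 with PB and 43.4, 43.4, 43.1 and 47.4 with PB+RA, which is -0.43 ± 0.05, -0.37 ± 0.05 and -0.78 ± 0.05 on the log2 scale. For both genes RA and PB gave falls of like size, unlike SNRPB, where that with PB was the larger. This was not particular to LSM genes. SNRPD2 (-0.34 with RA, -0.29 with PB), SNRPD3 (-0.18 and -0.17) and PRPF4 (-0.28 and -0.27) also had falls of like size. LSM3 crossed the fold minimum in either direction when single libraries were left out, with a PB value of -0.46 without DMSO replicate 1, -0.49 without PB replicate 3 and -0.48 without PB replicate 4, and an RA value of -0.50 without DMSO replicate 4 or RA replicate 2 and -0.53 without RA replicate 1. LSM7 and LSM8 were at -0.34 and -0.27 with PB+RA, past the adjusted p but not the fold minimum. Outside the U6 ring, LSM1 of the cytoplasmic decay ring was at -0.22, the U7 proteins LSM10 and LSM11 at -0.14 and 0.24, and LSM12 at -0.22, of which LSM1 and LSM11 passed the adjusted p alone.

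In the SRSF family 7 of 12 genes were called lower with PB+RA and none higher, and with PB 6 were called lower. Over all tested genes 17.9% were called lower and 24.0% higher with PB+RA, and 11.3% were called lower with PB. SRSF3 (chr6:36562130-36573377, plus strand), which had the most counts, was 549, 571, 598 and 561 CPM in DMSO, 499.6, 482, 467 and 481 with RA, 309, 307, 353 and 351 with PB and 233, 257, 268 and 272 with PB+RA. SRSF7 was 259, 253, 278 and 275 CPM in DMSO, 228, 216, 220.4 and 227 with RA, 143, 149.5, 167 and 179 with PB and 106, 113, 139 and 129 with PB+RA. SRSF2 was 481, 454, 482 and 449 CPM in DMSO, 377, 380.1, 363 and 362 with RA, 260.1, 274, 282 and 296 with PB and 205, 212, 220.4 and 222 with PB+RA. In all 3, which are classical SR proteins with roles in exon inclusion and, for SRSF3 and SRSF7, in mRNA export, the groups stepped down from DMSO over RA and PB to PB+RA, and none overlapped. Their log2 fold changes with PB+RA were -1.17 ± 0.06, -1.16 ± 0.08 and -1.15 ± 0.05, and with PB -0.79 ± 0.06, -0.74 ± 0.08 and -0.75 ± 0.05, with adjusted p of at most 1.14e-06 among these. SRSF1, SRSF4, SRSF10 and SRSF9 were called lower with PB+RA at -1.09, -1.002, -0.94 and -0.59. SRSF10 lost its PB call (-0.52) when any of PB replicate 1 (-0.45), PB replicate 2 (-0.50) and DMSO replicate 4 (-0.49) was left out.

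SRSF5, SRSF6, SRSF8, SRSF11 and SRSF12 were not called in any comparison, and the following values were singled out after they were seen. SRSF6, whose protein is a close relative of those of SRSF4 and SRSF5, was 294, 306, 318 and 313 CPM in DMSO, 299.7, 304, 294 and 308 with RA, 326, 313, 333 and 340.0 with PB and 312, 331, 328 and 319.7 with PB+RA. SRSF5 was 257, 254, 252 and 244 CPM in DMSO, 250.4, 266, 241 and 235 with RA, 284, 279.6, 272 and 262 with PB and 284, 317, 279 and 259 with PB+RA. The log2 fold changes with PB+RA were 0.04 ± 0.04, adjusted p = 0.385 for SRSF6 and 0.15 ± 0.06, adjusted p = 0.0302 for SRSF5, while that of SRSF4 was -1.002 ± 0.10, adjusted p = 2.80e-07. SRSF8, 0.36 with PB+RA, and SRSF12, 0.35, passed the adjusted p (2.39e-04 and 9.95e-04) but not the fold minimum. SRSF12, a repressor among the SR proteins, was also the 1 member higher with RA when no fold minimum was used (0.24 ± 0.08). SRSF11 was at -0.25 with PB+RA and passed the adjusted p as lower. Of these relatives, SRSF4, which was called lower, and SRSF5, which was not, both held CCGGAAGT in their promoters.

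**Figure D4:**
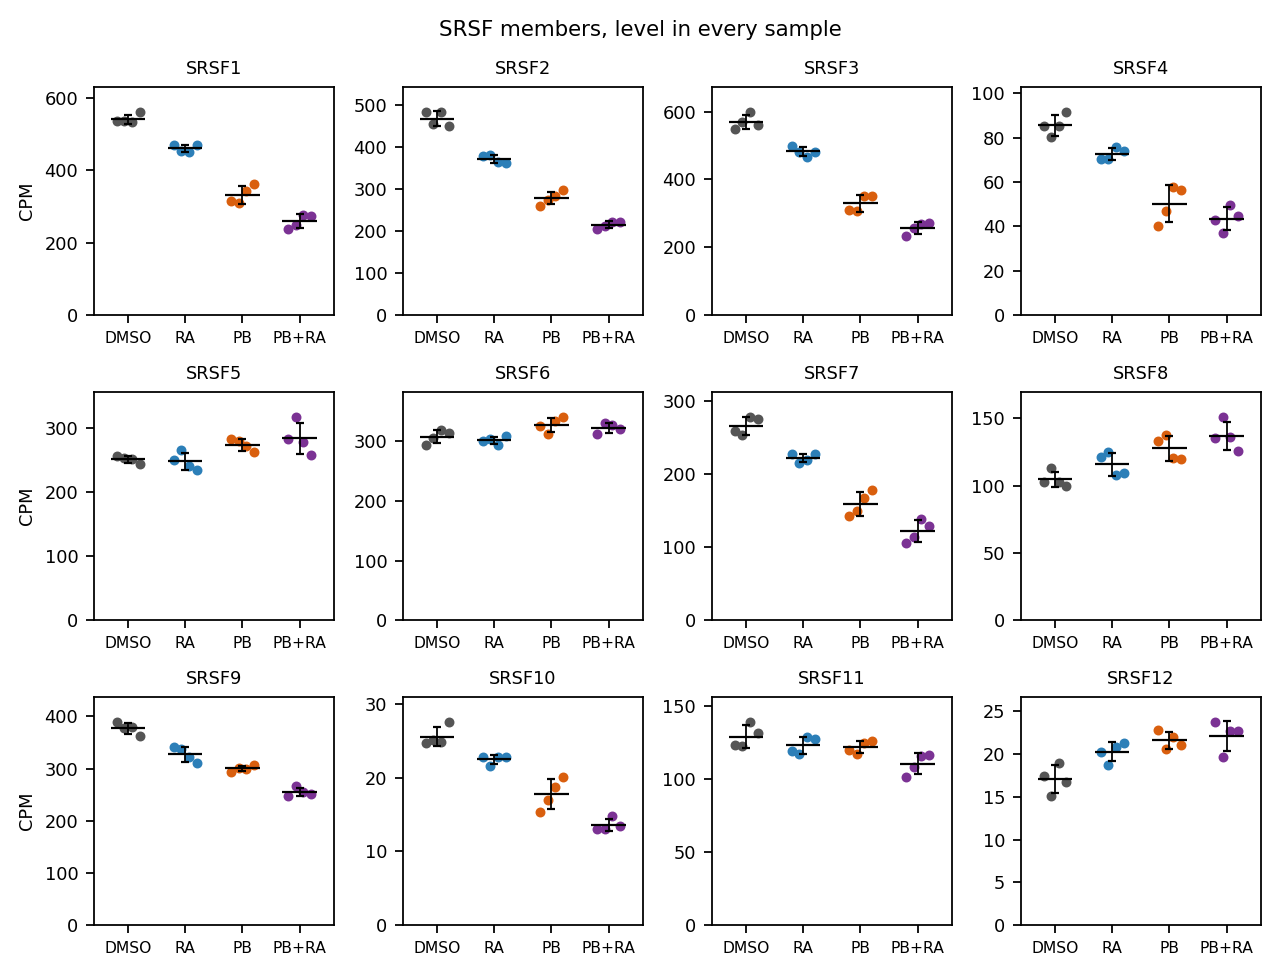
Level in CPM (vertical axes, from 0) of the 12 SRSF genes in every sample by group, with points for samples, a line for the mean of 4 and error bars for the SD. SRSF1, SRSF2, SRSF3 and SRSF7 step down from DMSO to PB+RA without overlap, while SRSF5 and SRSF6 stay near their DMSO level.

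Of the HNRNP genes, the largest family, 15 of 20 tested (75.0%) were called lower with PB+RA, the same share as the 9 of 12 SNRP genes, 10 with PB and 14 with PB+RA against RA, and none called higher. Over all tested genes 17.9%, 11.3% and 14.1% were called lower in these comparisons, and 24.0% were called higher with PB+RA. HNRNPD (chr4:83273651-83295656, minus strand on hg19), which encodes AUF1, a protein that binds AU-rich elements, had the largest fall of all members. It was 808, 806, 759 and 771 CPM in DMSO, 626, 647, 645 and 602 with RA, 376, 402, 428 and 423 with PB and 259, 286, 279.9 and 261 with PB+RA. The groups lay far apart, and the log2 fold change was -0.33 ± 0.05, adjusted p = 1.53e-04 with RA, -0.95 ± 0.05, adjusted p = 9.52e-10 with PB and -1.56 ± 0.05, adjusted p = 7.76e-13 with PB+RA. HNRNPD was also called lower with PB+RA against PB (-0.62 ± 0.05, adjusted p = 2.26e-07). Its neighbour and paralog HNRNPDL (chr4:83343718-83351615, minus strand) fell by 1.00 with PB+RA and 0.57 with PB on the log2 scale.

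HNRNPA2B1, the gene with the most counts of all members, encodes A2 and B1, which bind and carry many mRNAs. It stood at 1812, 1779.5, 1812 and 1893 CPM in DMSO, 1544, 1525, 1487 and 1537 with RA, 1105, 1085, 1196 and 1276 with PB and 831, 872, 968 and 929.6 with PB+RA, and no 2 groups overlapped (-1.05 ± 0.06, adjusted p = 7.79e-11 with PB+RA). HNRNPM was 733, 689, 722 and 710.2 CPM in DMSO, 665, 611, 617 and 635 with RA, 396, 420.0, 441 and 452 with PB and 317, 343, 343 and 349 with PB+RA (-1.11 ± 0.05, adjusted p = 1.48e-11). HNRNPH3 was 398, 391, 393 and 398 CPM in DMSO, 340.3, 326, 347 and 351 with RA, 219.7, 211, 249.6 and 266 with PB and 172, 162, 209 and 205 with PB+RA (-1.11 ± 0.08, adjusted p = 3.98e-09). Both stepped down without overlap, and HNRNPM, like HNRNPD and HNRNPH3, holds an E-box in its promoter. All 6 HNRNP genes with that motif were called lower with PB+RA, as were 9 of the 14 tested HNRNP genes that lacked it or had no promoter sequence. Over all tested genes the E-box was in 10.4% of the promoters of those called lower with PB+RA, against 9.96% of all their promoters. MYCN itself, whose protein binds E-boxes, had mean levels of 2947, 2635, 5482 and 4462 CPM in DMSO, RA, PB and PB+RA, and its part in these levels was not tested.

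The other HNRNP genes called lower with PB+RA were HNRNPAB, HNRNPF, HNRNPL, HNRNPUL1, HNRNPH1, HNRNPA3, HNRNPU, HNRNPR, HNRNPA1 and HNRNPC, with log2 fold changes from -0.95 (HNRNPAB) to -0.53 (HNRNPC). HNRNPL, which binds CA repeats, lost its PB call (-0.54) without PB replicate 1 (-0.49). HNRNPR lost its call between PB+RA and RA (-0.51) without PB+RA replicate 1 (-0.50), RA replicate 1 (-0.49) or DMSO replicate 4 (-0.50). HNRNPU, whose protein is a nuclear scaffold factor, was just short of a call with PB at -0.497. The 5 that were not called with PB+RA were HNRNPK (-0.45), HNRNPUL2 (-0.37), HNRNPA0 (-0.27), HNRNPLL (-0.15) and HNRNPA1L2 (0.07). Within pairs of paralogs the values could lie apart, as with -0.85 for HNRNPL and -0.15 for HNRNPLL, or -0.83 for HNRNPUL1 and -0.37 for HNRNPUL2. These pairs were chosen after their values were seen, and the differences between paralogs were not tested. HNRNPA1 and HNRNPC have many processed pseudogenes, and the dropped HNRNP pseudogene symbols together held 0.457% of the counts of the family. Among them HNRNPCP2 alone held 8682 counts, against 201735 for HNRNPC. How far pseudogenes affected the counts of these genes was not tested.

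The combination was close to the sum of the single agents on the log2 scale. No member was called in the test of the interaction (PB+RA minus PB minus RA plus DMSO) by edgeR or DESeq2, where 3.02% of all tested genes were called lower. An unadjusted p under 0.05 was found for 10 of 76 members and for 2800 of all 15415 tested genes. The interaction was below 0 for 56 and above 0 for 20 members, with a median of -0.08, against -0.04 for all tested genes. Without a fold minimum 3 members passed, all with a fall larger than the sum, a share near the 4.35% of all tested genes that passed in that direction. These were HNRNPD (-0.29 ± 0.07, adjusted p = 0.0295), HNRNPDL (-0.27 ± 0.07, adjusted p = 0.0262) and SNRPA (-0.25 ± 0.07, adjusted p = 0.0466). SNRPA1 had -0.35 ± 0.19 (adjusted p = 0.367) in this fit and -0.34 ± 0.07 (adjusted p = 0.00185) with the replicate number as a block, which pairs the samples across groups. With the block 8 of 76 members passed without a fold minimum, all below 0, where 12.5% of all tested genes did, so the share of members was again no larger than that of all genes. The 4 members beside these were HNRNPA1, LSM4, SF3A3 and HNRNPH1, from -0.21 to -0.18.

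**Figure D5:**
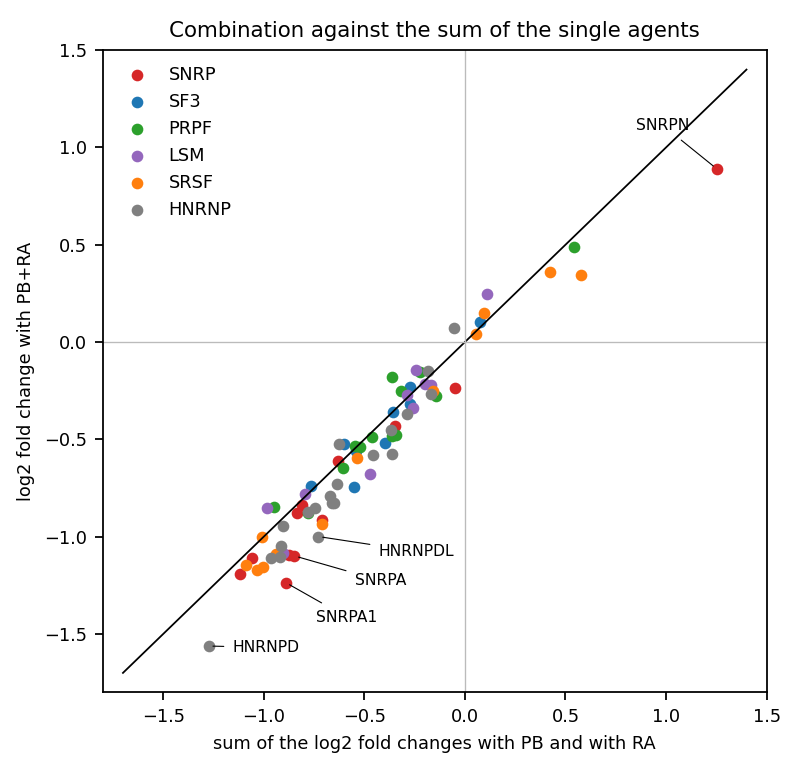
Log2 fold change with PB+RA (vertical axis) against the sum of the log2 fold changes with PB and with RA (horizontal axis), all against the same DMSO samples, for the 76 tested members, coloured by family, with the line of equality. HNRNPD lies below the line by 0.29 and HNRNPDL by 0.27.

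Across the 76 members the fall with PB+RA was larger in genes with more counts (Pearson r = -0.48, Spearman rho = -0.34 with log2 mean CPM). This is a correlation across genes that share the 16 libraries, and the mean includes the treated samples. It also includes the 2 tested members under 10 CPM, SNRPN (0.885 CPM, 0.89 with PB+RA) and PRPF40B (9.09 CPM, 0.49 with PB+RA). With the GC content of the exons r was 0.11, and with log2 exon length r was -0.07. Per kilobase of annotated exon, HNRNPAB, HNRNPA1, HNRNPK, SRSF2 and HNRNPA2B1 had the highest DMSO levels among the members, at 425, 197, 172, 157 and 145 CPM per kb. Of these, HNRNPA1 (-0.58) and HNRNPK (-0.45) fell less with PB+RA than HNRNPAB (-0.95), SRSF2 (-1.15) and HNRNPA2B1 (-1.05), without a test between them.

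Genes of 6 further lists of splicing factors had medians with PB+RA between -0.44 and -0.03. Of 29 tested other snRNP proteins, 13 were called lower with PB+RA and none higher, with a median of -0.44, led by DDX46, U2AF1 and USP39. DDX46, the helicase that acts on the U2 snRNP, went from 228, 224, 197 and 206 CPM in DMSO to 89.3, 93.4, 90.0 and 89.8 with PB+RA (-1.27 ± 0.07, adjusted p = 1.54e-10), and U2AF1, which reads the 3′ splice site, from 298, 288, 324 and 307 to 129, 138, 149 and 151 CPM (-1.13 ± 0.06, adjusted p = 1.47e-10). USP39, a tri-snRNP protein, was at -0.99. Of 31 catalytic and step factors 10 were called lower and none higher, led by BUD13 (-1.10), PPIE (-0.85) and CTNNBL1 (-0.87), with a median of -0.41. In the minor spliceosome 2 of 12 genes were called lower, SNRNP25 and SNRNP48, and none higher, a share near the 17.9% of all tested genes. SNRNP25, a protein of the U11/U12 snRNP, fell further than any member, from 136, 115, 132 and 122 CPM in DMSO to 96.1, 86.4, 78.3 and 79.6 with RA, 46.3, 50.9, 53.9 and 58.7 with PB and 30.7, 32.4, 33.0 and 32.5 with PB+RA (-1.999 ± 0.08, adjusted p = 6.38e-12), and SNRNP48 was at -0.68. The snRNP assembly genes, also near that share, gave 4 of 18 called lower and none higher, NCBP1 (-0.59), GEMIN4 (-0.57) and COIL (-0.53) among them.

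Regulators outside the 6 families did not share one direction. Of 18 SR-related factors and kinases 2 (11.1%) were called lower with PB+RA and none higher, where 17.9% of all tested genes were called lower. The 2 were TRA2B (-1.07 ± 0.08, adjusted p = 9.96e-09) and RSRC1 (-0.57 ± 0.05, adjusted p = 1.22e-08), and the median of the list was -0.13. Among 27 tested neuronal and tissue splicing regulators, 8 were called higher and 7 lower with PB+RA, where 24.0% and 17.9% of all tested genes were, with a median of -0.03. With PB 9 were called higher and 3 lower, where 16.9% and 11.3% of all tested genes were. The median of the list was 0.31 with PB and 0.04 with RA. NOVA2, a neuronal splicing factor, rose from 18.5, 18.2, 20.5 and 21.7 CPM in DMSO to 31.1, 35.7, 41.9 and 36.6 with RA, 63.4, 59.7, 66.8 and 70.6 with PB and 62.1, 61.4, 59.0 and 58.0 with PB+RA (1.58 ± 0.08, adjusted p = 8.22e-11). CELF4 and CELF3, both of the CELF family found in neurons, rose by 1.64 and 1.51. PTBP1, which represses neuronal exons and is itself known as HNRNP I, went from 844, 821, 756 and 774 CPM in DMSO to 519, 554, 534 and 523 with PB and 445, 445, 427 and 420.2 with PB+RA (-0.91 ± 0.04, adjusted p = 3.36e-11). QKI and MBNL1 were also called lower, at -1.04 and -0.80. PTBP1 lies outside the symbol rule although its protein is of the HNRNP kind, so the families here are those that the symbols define.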

How the data were processed

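RNA-seq of 16 samples of SK-N-BE(2)C cells was used. Per the labels and the study's methods, polyA RNA was made into directional libraries and read as paired 50-base reads, which were trimmed with Trim Galore 0.6.4 (minimum phred score 20) and aligned to hg19 with STAR 2.6.1d. The deposited raw counts per gene came from STAR's quantMode, and the deposited CPM values equal these counts scaled to 1000000 per library. The annotation release and the strand setting were not given in the sources used here. The authors' own DESeq2 1.32.0 table of fold changes and p-values was not used.

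Members were taken by symbol, and positions, exon lengths and shared exons from GENCODE on hg19. Counts were filtered by expression (15415 genes kept), scaled by TMM (factors 0.983 to 1.02) and fitted with edgeR 4.0.16 (robust quasi-likelihood, 1 coefficient per group, no block) in R 4.3.3, with Benjamini-Hochberg adjustment over all tested genes. SE is the log2 fold change over the root of the F statistic. A call needed an adjusted p under 0.05 and a log2 fold change beyond 0.5, the study's threshold. The fit was tested on simulated data. DESeq2 1.42.0, limma 3.58.1 (voom), other scalings, filters, thresholds and sample sets were tried, as was a correction for GC and length (values for 96.3% of tested genes).

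Samples with the same replicate number deviated together (24 pairs, r = 0.330 to 0.573), so the numbers pair the samples across groups, and the fit with the replicate number as a block was run beside the main one. Named members were the one with the most counts per family, up to 3 called rises and falls per family with the largest change under PB+RA at a mean of at least 10 CPM, members whose calls differed between treatments, SNRPB and SNRPN, and, for other lists, up to 3 rises and 3 falls each. Further members are given by value, except 1 that is not reported here. The members and lists were chosen with earlier results of these data known. Promoters are from RefSeq on GRCh38.p14. Floors cover counting error only.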

Additional observations from a re-analysis of the deposited data

Results flagged for a closer look

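In 3 of 120 groups of 4 samples that were examined, a single sample lay far from the other 3, where chance alone would single out about 1 group in 20. PB replicate 2 had the highest LSM sum of its group, 730.3 CPM, against 683 to 691 CPM in the other PB samples. LSM5 was highest in PB+RA replicate 4 at 47.4 CPM, against 43.1 to 43.4 CPM in the other samples of that group. SF3B4 was highest in PB+RA replicate 3 at 91.6 CPM, against 88.4 to 88.7 CPM in the others.

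For 3 members the effect of RA differed between cells with and without PB by the test of the interaction, which none of them passed at the fold minimum. That share of the 76 tested members is near the 4.35% of all tested genes that passed as lower without a fold minimum. The interaction was -0.29 for HNRNPD, -0.27 for HNRNPDL and -0.25 for SNRPA on the log2 scale, each with a larger fall under PB+RA than the sum of the single agents.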

How the results depend on the processing

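Changes of tool, scaling, filter or sample set kept the counts of called members within 1.5 times for PB against DMSO (26 to 33, main 29), PB+RA against DMSO (44 to 49, main 46) and PB+RA against RA (30 to 36, main 34). Leaving out each library in turn gave 26 to 30, 46 to 49 and 32 to 36, with 0 to 1 for RA against DMSO, 1 to 3 for PB+RA against PB and 0 for the interaction. The fold minimum decided most. Without it the counts were 63 for PB, 37 for RA, 70 for PB+RA, 50 for PB+RA against PB, 61 for PB+RA against RA and 3 for the interaction, and at a log2 change above 1 they were 0, 0, 15, 0, 2 and 0. For RA the count went from 0 to 1 with DESeq2, with RLE size factors, with no filter and with the GC and length correction, with or without the block, and to 2 with replicates 3 and 4 alone. Between PB+RA and PB it went from 2 to 4 with replicates 1 and 2 alone and to 4 with replicates 3 and 4 alone. With the replicate number as a block the counts were 29, 0, 46, 2, 35 and 0, and the block changed no call other than that of PRPF19 between PB+RA and RA, though without a fold minimum it moved the interaction from 3 members to 8. No called direction reversed.

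Of the calls under PB+RA against DMSO, 42 of 46 held under every alternative that kept the thresholds, and the exceptions were HNRNPC, SF3A2 and SF3B2 with scaling by total counts (-0.50, -0.49 and -0.49) and SNRPN with 2 replicates a group. Of the 29 calls with PB, 22 held under those alternatives, and 29 of 34 held between PB+RA and RA. SNRPN had at most 31 counts in a library and shares exon bases with SNHG14 and SNURF. Both the low counts and the shared exons limit what can be said of it.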
